A study of Apis mellifera with 9 samples.

Results

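The genes described here are the weakly expressed ones whose level in honey bee larvae was at least 2-fold higher or lower when the food held 0.25 mM quercetin. They were picked from the 15314 features of the raw count table by the data themselves, with CPM meaning reads on a feature per 1000000 reads on all features of a library. A gene had to average at least 0.5 and under 5 CPM over the 9 libraries. Its mean at 0.25 mM had to be at least 2 times its control mean, with all 3 libraries at 0.25 mM above all 3 controls, or at most 0.5 times, with all 3 below. Of 2577 genes in that range of abundance, 63 met the upward rule and 109 the downward rule, 172 in all, and they are called risers and fallers here as names for the rule they met.

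Newly hatched larvae of Apis mellifera from a hive of the University of Illinois bee facility were grafted into plates and fed for 3 days on a semi-artificial diet of 50% royal jelly and 50% of a solution of 12% glucose, 12% fructose and 2% yeast extract, at 30 µl a well. There were 3 diets: no quercetin (control), 0.1 mM quercetin and 0.25 mM quercetin, each replicated 3 times with 10 to 12 larvae per replication. Nothing else separates the groups in the labels, which do not say whether replications came from different colonies or how many larvae entered a library. The source field reads whole larvae while the protocol for RNA speaks of midguts, and no marker gene could be looked up to decide between them, because the features carry GB identifiers that the table does not pair with names and 0 of 15314 matched the 12398 genes of the reference table. The genes are therefore described by their levels and not by function.

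Quercetin is a flavonol of plants that bees take up with pollen, nectar and honey, and insects clear such compounds with detoxifying enzymes such as cytochrome P450s. A transcript at the low levels studied here can be a gene used by few cells, or a gene used sparingly by many. In RNA from bulk tissue, fewer cells of a type and less RNA per cell cannot be told apart. What can be measured for such genes is set in part by how many reads fall on them.

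Each library held between 34456449 and 42874091 reads on features. Summed over the 3 libraries of a diet, a riser rested on 84 to 883 reads at 0.25 mM and on 29 to 398 reads in control. A faller rested on 27 to 385 reads at 0.25 mM and on 73 to 841 reads in control. None of the 172 genes was at 0 in any library. The lowest single count was 2 reads, in a riser in control 1 and in a faller in 0.1 mM replicate 1. Since the table heads the 3 columns of 0.25 mM alike, the letters a, b and c stand for these libraries in table order, as names only. Library a stood apart from b and c, and the number of genes chosen, the place of 0.1 mM and the calls between the doses are given with and without it.

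Values on both sides of the limits were close. The risers nearest to the ratio limit had 2.003 and 2.006 times their control mean, and the genes just outside it 1.994 and 1.988 times. Among fallers, control exceeded 0.25 mM by 2.004 and 2.007 times just inside and by 1.9995 and 1.994 times just outside. At the lower limit of abundance the nearest risers averaged 0.535 and 0.546 CPM, with 0.474 and 0.464 CPM just outside, and the nearest fallers 0.505 and 0.514 CPM, with 0.498 and 0.473 CPM outside. At the upper limit the risers inside averaged 4.93 and 4.47 CPM and those outside 5.32 and 5.69 CPM, and the fallers 4.96 and 4.87 CPM inside and 5.11 and 5.41 CPM outside. Without the condition on overlap, 18 further genes had the ratio of a riser and 12 that of a faller.

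The split between the directions depended on how libraries were scaled. With CPM on the plain sum of features, as the rule has it, 63 genes were higher and 109 lower. On library sizes scaled by TMM, which sets most genes to no change, 87 were higher and 88 lower, and these included all 63 risers and 88 of the 109 fallers. Size factors of the RLE kind gave 86 and 88. The median log2 difference between 0.25 mM and control over the 11508 genes tested was -0.07 with plain CPM, 0.01 with TMM and 0.05 with upper-quartile factors.

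Most members lay near the limit of the rule that chose them. The ratio of 0.25 mM over control had a median of 2.28 among risers and was under 2.5 in 43 of the 63. It was at least 3 in 8 of them and at least 4 in 2. Among fallers, control exceeded 0.25 mM by a median of 2.45 times, by less than 2.5 times in 60 of 109, by at least 3 times in 23 and by at least 4 times in 7. The rule fixed these sizes and directions, so they carry no test. Of the risers 62 of 63, and of the fallers 92 of 109, were also called in edgeR's quasi-likelihood test of 0.25 mM against control across all genes, where 17.1% of genes were called higher and 18.5% lower. The same contrast chose the members, so these counts say nothing beyond the choice. The counts also changed with the libraries used, as the shares of all genes called did. Without library a, 62 risers and 100 fallers were called, beside 27.4% of all genes called higher and 28.6% called lower. The risers called were 36 without control 2 and 37 without library c, beside 6.42% and 5.89% of all genes called higher. The fallers called were 26 without library c, 45 without b, 48 without control 2 and 50 without control 3, beside 3.72%, 5.75%, 5.7% and 7.91% of all genes called lower. All 172 had passed the filter on low counts.

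As a group the members took a small part of each library. The 63 risers together had 66.8, 61.1 and 71.6 CPM in the controls, 91.4, 103 and 107 CPM at 0.1 mM, and 123, 169 and 187 CPM at 0.25 mM. The 109 fallers had 291, 290 and 295 CPM in the controls, 228, 231 and 207 CPM at 0.1 mM, and 161, 88.7 and 87.5 CPM at 0.25 mM. The controls and the 0.1 mM libraries each formed a narrow band, while the 0.25 mM libraries spread, with library a on the side of 0.1 mM in both sums. The 5 highest genes held 19.3% of the risers' sum and 12.5% of the fallers' sum at 0.25 mM.

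**Figure D1:**
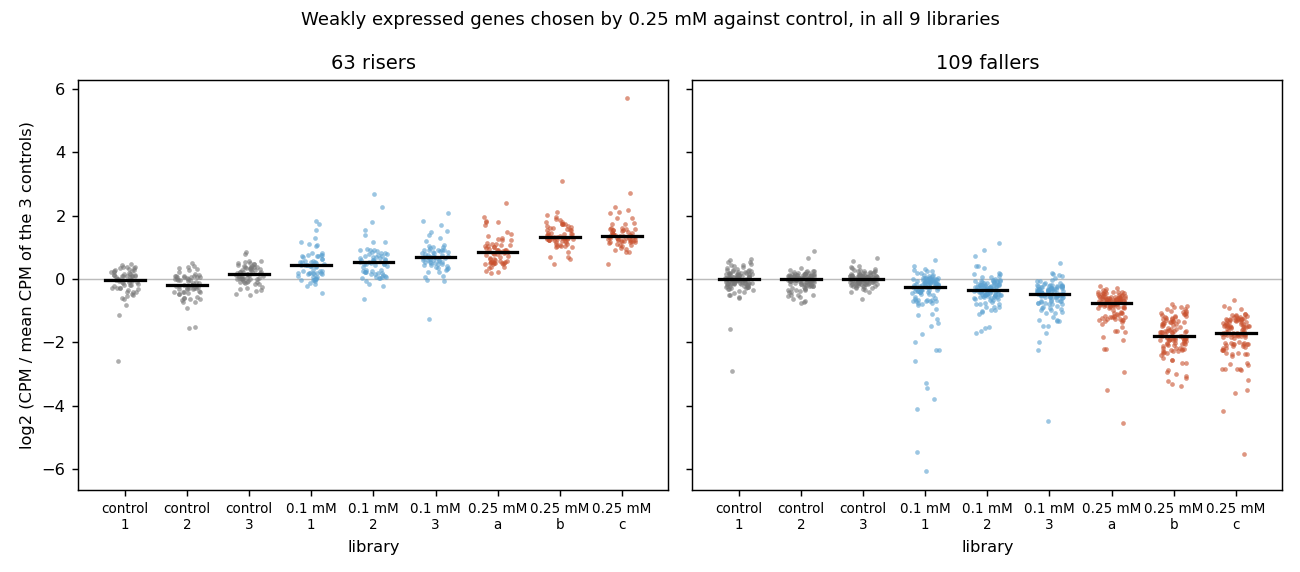
Each point is 1 gene in 1 library, as log2 of its CPM over the mean CPM of the 3 controls, for 63 risers (left) and 109 fallers (right), with a black bar at the median of each library. The medians of the risers are 0.85, 1.32 and 1.34 in libraries a, b and c of 0.25 mM, those of the fallers -0.74, -1.81 and -1.72, and the 0.1 mM libraries lie between these and the controls.

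The libraries of 0.25 mM did not share the change evenly. Relative to the control mean, the median riser was higher by 0.85 on the log2 scale in library a, 1.32 in b and 1.34 in c. The median faller was at -0.74 in a, -1.81 in b and -1.72 in c. Library a was the least extreme of the 3 in 50 of 63 risers and in 92 of 109 fallers. Taken alone it was at least 2-fold from the control mean in 21 risers and 33 fallers, against 57 and 102 for library b and 57 and 105 for library c. All 3 libraries were at least 2-fold from control in 13 risers and 28 fallers, and in 38 risers and 70 fallers b and c were but a was not. Among genes with the same ratio and order at higher abundance, the medians in a, b and c were 0.64, 1.46 and 1.29 for the 38 risers of 5 to 50 CPM and -0.60, -1.64 and -1.58 for the 106 fallers, so the place of library a was seen outside the weakly expressed genes as well.

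The choice of genes was repeated with each library left out, so that the missing library could be placed among genes it had not helped to choose. The controls, or the libraries of 0.25 mM, that stayed in were still shared between the choice and this reading. Without library a, 133 risers and 222 fallers were found, and library a itself lay above all controls in 92 of these risers and below all controls in 179 of these fallers. Of all genes in the same range of abundance, library a lay above all controls in 27.2% and below them in 32.2%. Its median fold against the control mean was 1.41 upward and 1.46 downward, under the limit of 2. Without library b, 50 risers and 94 fallers were found, and b lay clear of the controls in 47 and 84 of them, beside 44.1% and 31.3% of all genes in the range, with median folds of 2.42 and 3.39. Without library c the numbers were 51 and 87, with c clear in 48 and 85, beside 41.1% and 32.7% of all genes in the range, and median folds of 2.34 and 3.19.

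A left-out control was read in the same way. Without control 1, 99 risers and 111 fallers were found, and control 1 lay below all libraries of 0.25 mM in 77 of the risers and above them in 104 of the fallers, beside 28.6% and 33.7% of all genes in the range. For control 2 the counts were 49 of 56 risers and 117 of 127 fallers, beside 40.5% and 26.3%. For control 3 they were 74 of 87 and 110 of 110, beside 32.7% and 29.5%. The mean of 0.25 mM over the left-out control had a median of 1.87, 2.43 and 1.92 among risers for controls 1, 2 and 3. Among fallers the left-out control exceeded the 0.25 mM mean by medians of 2.35, 2.33 and 2.45 times. The median fold was under 2 for library a in both directions and, among risers, for controls 1 and 3. It was above 2 in the other cases.

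**Figure D2:**
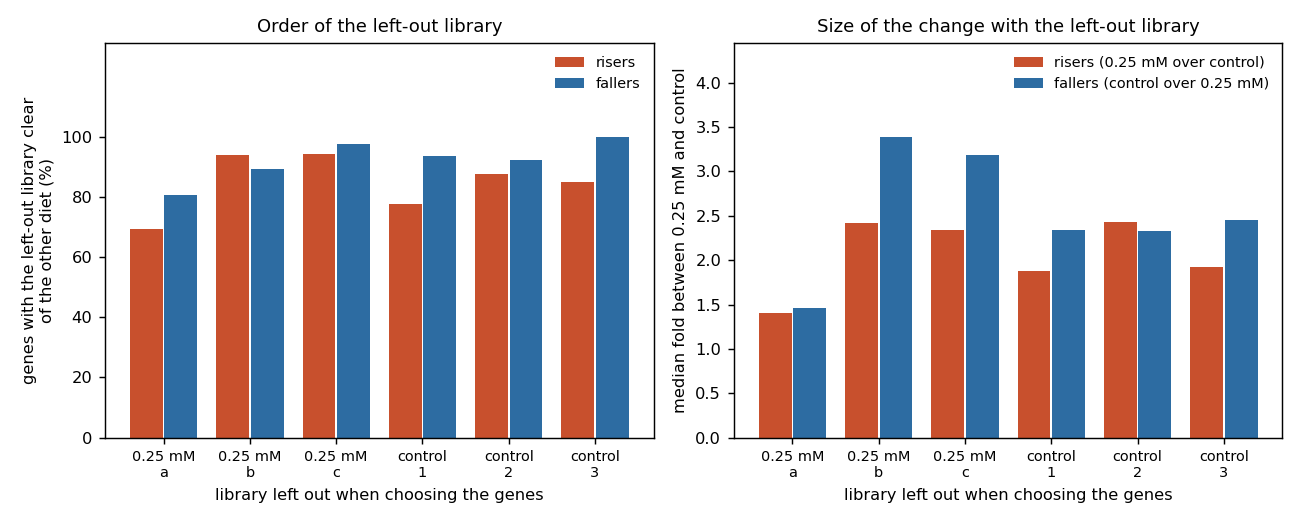
Genes chosen again with 1 library left out, shown by that library. Left, the share of chosen risers and fallers in which the left-out library lay clear of all libraries of the other diet (69.2% of risers and 80.6% of fallers for library a, beside 27.2% and 32.2% of all genes of that abundance, which are not drawn, and up to 100% of fallers for control 3). Right, the median fold between 0.25 mM and control measured with the left-out library, which is lowest for library a at 1.41 and 1.46.

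The largest ratio among risers rested on library c. GB52184-RA had 0.295, 0.0871 and 0.381 CPM in the controls, 0.9, 1.62 and 1.07 CPM at 0.1 mM, and 0.91, 1.1 and 13.2 CPM at 0.25 mM. Library c stood far above the other libraries, and without it the 0.25 mM libraries lay inside the range of 0.1 mM. Its mean ratio of 19.9 against control came from 599 reads at 0.25 mM and 29 reads in control, and the fitted log2 fold change was 4.34 with all libraries and 2.03 without c. GB40053-RA followed with a ratio of 6.78. It had 0.0536, 0.348 and 0.559 CPM in the controls, 0.476, 0.559 and 1.14 CPM at 0.1 mM, and 1.7, 2.71 and 2.1 CPM at 0.25 mM. Here the 3 libraries of 0.25 mM stood together above all others, while the controls differed by 10.4 times between the lowest and the highest.

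The risers with the smallest spread relative to their change were GB53978-RA and GB41221-RA, named by their rank in edgeR's fit of 0.25 mM against control. GB53978-RA had 1.39, 1.92 and 2.24 CPM in the controls, 3.25, 2.85 and 2.63 CPM at 0.1 mM, and 5.99, 6.16 and 6.94 CPM at 0.25 mM. No diets overlapped, and library a was level with b and c. Its log2 difference between 0.25 mM and 0.1 mM was 1.20 ± 0.179 (± SE), with an adjusted p of 0.0774 in edgeR. No member reached a smaller one between the doses in edgeR with all libraries, and the faller GB43359-RA had the same value. GB41221-RA had 0.67, 1.22 and 0.991 CPM in the controls, 2.8, 3.35 and 2.75 CPM at 0.1 mM, and 3.71, 3.32 and 2.92 CPM at 0.25 mM. Its libraries at both doses lay above all controls and overlapped each other, with a log2 difference between the doses of 0.23 ± 0.198 (edgeR, adjusted p = 0.419).

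The risers closest to the median ratio were GB47035-RA and GB49719-RA, picked for the size of their change and not for the place of library a. GB47035-RA had a mean CPM of 2.64 ± 0.271 in control, 3.72 ± 0.774 with 0.1 mM and 6.04 ± 2.02 with 0.25 mM (± SD of 3 libraries), where a had 3.71 CPM, b 7.21 and c 7.2. GB49719-RA averaged 0.852 ± 0.0925, 1.06 ± 0.167 and 1.95 ± 0.911 CPM, with 1.19 CPM in a, 2.96 in b and 1.69 in c. In both genes library a lay within or at the edge of the 0.1 mM range, and in GB49719-RA library b was the highest by far. This place of library a was not general, since it lay above all 3 libraries of 0.1 mM in 33 of the 63 risers. Library b did so in 53 and library c in 57, so a was clear of 0.1 mM least often. For single libraries no share over all genes was counted.

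The largest ratios among fallers belonged to genes that also varied widely among the libraries of 1 diet. GB46518-RA had 0.938, 13 and 7.17 CPM in the controls, 0.106, 2.23 and 0.316 CPM at 0.1 mM, and 0.303, 0.806 and 0.154 CPM at 0.25 mM. Control 1 lay close to the highest 0.25 mM library and far below the other controls. GB40659-RA had 0.617, 2.9 and 1.98 CPM in the controls, 0.132, 1.26 and 0.389 CPM at 0.1 mM, and 0.163, 0.367 and 0.256 CPM at 0.25 mM. The 2 genes shared their order of libraries in control and at 0.1 mM, with control 1 and 0.1 mM replicate 1 lowest and control 2 and 0.1 mM replicate 2 highest. Control exceeded 0.25 mM by 16.7 and 7 times in the means of the 2 genes, which rested on 52 and 32 reads at 0.25 mM.

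The fallers ranked first in edgeR's fit varied little within a diet. GB43359-RA had 2.82, 2.12 and 2.41 CPM in the controls, 1.85, 1.59 and 1.63 CPM at 0.1 mM, and 0.956, 0.709 and 0.768 CPM at 0.25 mM. GB44434-RA had 3.67, 4.09 and 3.71 CPM in the controls, 2.41, 3.04 and 2.68 CPM at 0.1 mM, and 1.59, 1.56 and 2.05 CPM at 0.25 mM. In both genes the 3 diets stood in separate steps without overlap. The fallers closest to the median ratio were GB51216-RA and GB52760-RA. GB51216-RA had a mean CPM of 0.942 ± 0.406 in control, 0.963 ± 0.327 with 0.1 mM and 0.384 ± 0.0805 with 0.25 mM, with no step at the lower dose. GB52760-RA averaged 1.81 ± 0.422, 1.24 ± 0.275 and 0.738 ± 0.0896 CPM (SD, n = 3 each).

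**Figure D3:**
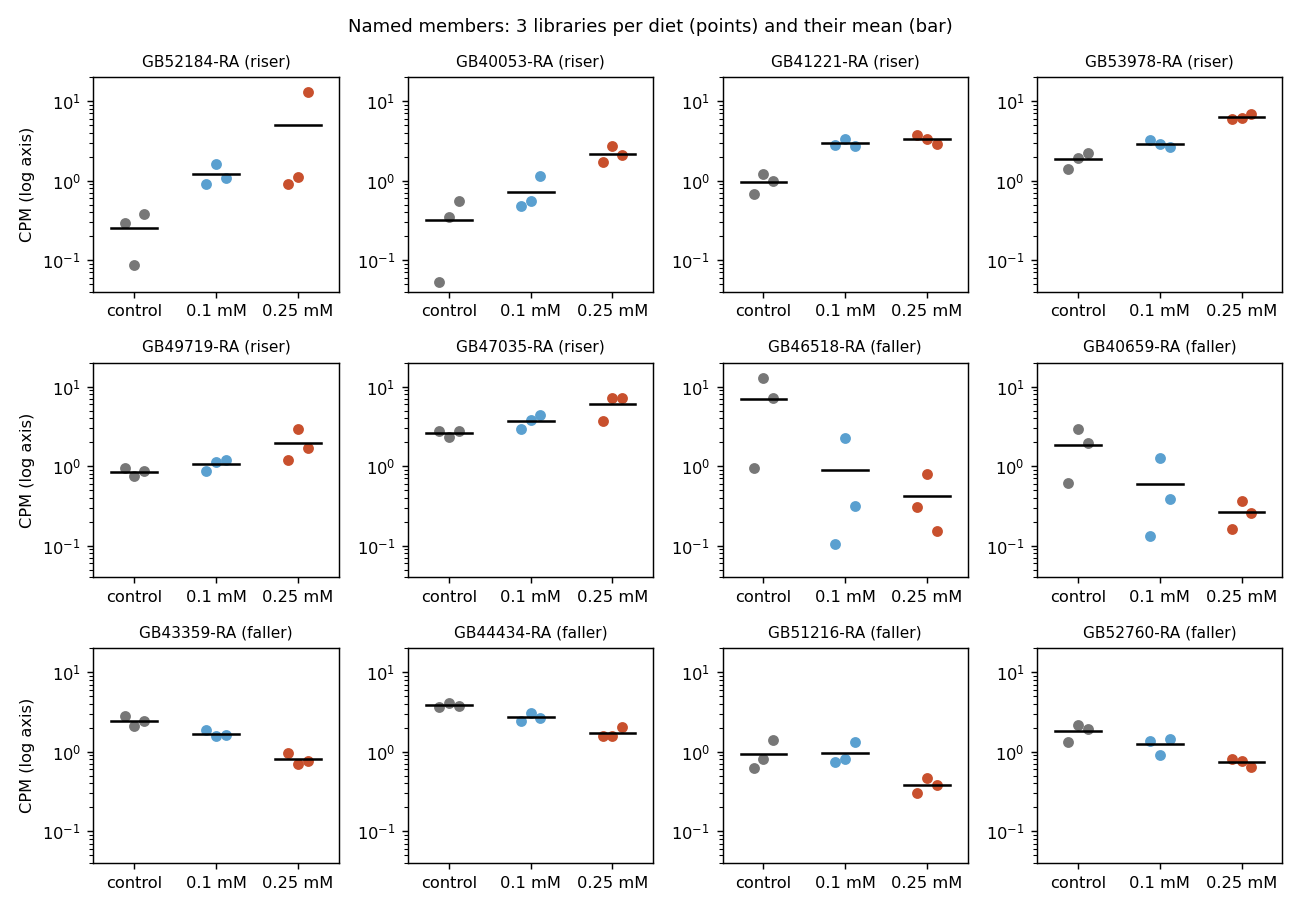
CPM on a log axis of the 12 named genes in control, 0.1 mM and 0.25 mM, with 1 point per library and a bar at the mean of 3. GB52184-RA owes its mean to 1 library at 13.2 CPM, GB46518-RA and GB40659-RA spread widely within control and 0.1 mM, and GB53978-RA, GB43359-RA and GB44434-RA form 3 separate steps.

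The 0.1 mM diet, which the ratio and the order did not use, lay between control and 0.25 mM for most members. Its mean was between the other means in 59 of 63 risers and 101 of 109 fallers, beyond 0.25 mM in 3 and 2, and on the far side of control in 1 and 6. Without library a it was between them in 60 risers and 102 fallers. The same controls served to choose the genes and to measure this place, so this place is not independent of the choice. The median log2 difference of 0.1 mM from control was 0.50 in risers and -0.36 in fallers on plain CPM. In the fit it was 0.50 and -0.35, beside a median of 0.00 over all genes tested. The mean at 0.1 mM was at least 2-fold from the control mean in the direction of the rule in 8 risers and 6 fallers. How many of all genes had such a ratio, without the condition on overlap, was not counted.

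The 3 risers with a 0.1 mM mean beyond 0.25 mM were near to level at both doses, and were picked for this after their values were seen. GB46289-RA had mean CPM of 1.42 in control, 4.23 with 0.1 mM and 3.58 with 0.25 mM, GB43714-RA 1.34, 3.49 and 3.15 CPM, and GB51306-RA 0.375, 1.03 and 0.988 CPM. Both fallers of this kind had the same form, GB53119-RA with 1.64, 0.724 and 0.81 CPM and GB55210-RA with 2.44, 1.02 and 1.08 CPM. The only riser below control at 0.1 mM was GB47095-RA, by -0.03 on the log2 scale. The 6 fallers above control at 0.1 mM were so by at most 0.13.

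Libraries of 0.1 mM lay wholly above the controls in 25 of 63 risers and wholly below them in 39 of 109 fallers. Over the genes of the same abundance such an order was found in 10.5% upward and 6.25% downward, and over all genes tested in 9.57% and 13.9%. Libraries of 0.25 mM lay wholly above those of 0.1 mM in 27 risers and wholly below them in 71 fallers, beside 7.92% and 14% at the same abundance and 5.6% and 28.6% over all genes. Without library a the same was true of 50 risers and 90 fallers, beside 26.3% and 24.1% at the same abundance, where an order of 2 against 3 libraries is met more easily. The controls or the 0.25 mM libraries in each of these comparisons had helped to choose the members. Both steps were free of overlap in 3 risers, which were GB53978-RA, GB42099-RA and GB49808-RA, and in 27 fallers. Neither step was in 14 risers and 26 fallers. Shares of all genes with both steps or neither step free of overlap were not counted. These last numbers therefore describe the members only, and the directions cannot be compared by them.

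In the test of 0.1 mM against control across all genes, 1 of 63 risers and 0 of 109 fallers were called, beside 0.0695% of genes called higher and 0% called lower. The riser was GB41221-RA, with a log2 fold change of 1.63 ± 0.221 (± SE; edgeR quasi-likelihood test, adjusted p = 0.0436), higher than every control in 3 of 3 libraries. Its call was lost without any single control or 0.1 mM library, without b or without c of 0.25 mM, in limma-voom and with the replicate number as a block, with an adjusted p of up to 0.246. Of all genes, 0% were called higher without any single control, without 0.1 mM replicate 2 or 3, without b and in limma-voom. The share was 0.0172% without 0.1 mM replicate 1, 0.0173% without c and 0.194% with the block. An unadjusted p under 0.05 was found in 21 risers and 15 fallers, beside 9.01% of all genes. DESeq2 gave 49 risers and 93 fallers an adjusted p and called 3 of them higher and 1 lower, beside 1.14% and 0.279% of all genes with an adjusted p. The smallest adjusted p among fallers was 0.284. A miss of the threshold does not show that these genes were level at 0.1 mM.

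Between 0.25 mM and 0.1 mM no member was called in edgeR, as 0% of all genes were in either direction, and the smallest adjusted p was 0.0774. An unadjusted p under 0.05 was found in 44 risers and 76 fallers, beside 34.1% of all genes. DESeq2 gave 36 risers and 73 fallers an adjusted p and called 21 of them higher and 48 lower at 0.25 mM, beside 9.81% and 11.4% of the genes to which it gave an adjusted p. The result depended on library a. Without it edgeR called 47 risers and 81 fallers, beside 21.4% of all genes called higher and 24.9% called lower. The 0.25 mM libraries that remained had chosen the members, so none of these counts is an independent test.

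**Figure D4:**
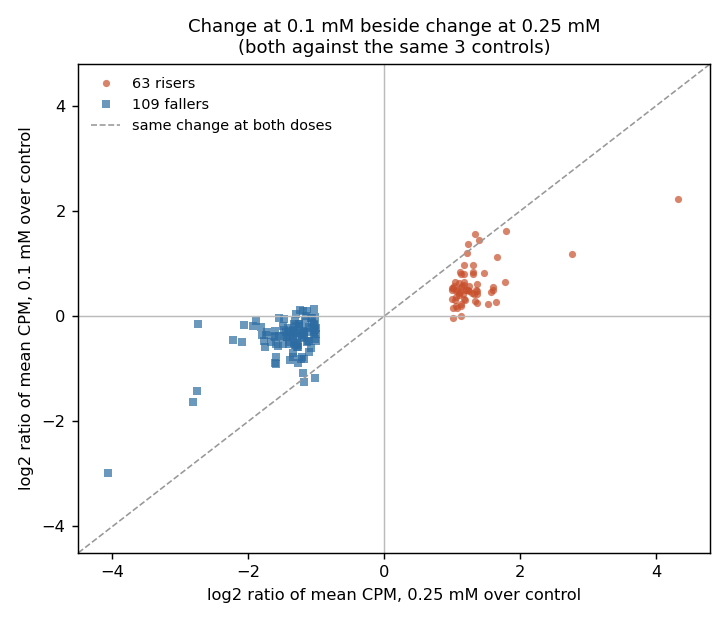
Log2 ratio of mean CPM at 0.1 mM over control (vertical) beside that at 0.25 mM over control (horizontal) for 63 risers and 109 fallers, with a dashed line where both doses would be equal. Both axes use the same 3 controls. Most points lie between the dashed line and zero, and 3 risers and 2 fallers lie past the line.

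The spread between libraries of 1 diet differed between the directions. At 0.25 mM the SD was 0.270 of the mean in the median riser and 0.419 in the median faller, where counting alone would give 0.111 and 0.167. The other 2405 genes of the same abundance had 0.184 there, with 0.117 from counting. In control it was 0.254 in risers and 0.135 in fallers, where counting would give 0.180 and 0.112, and the other genes had 0.145 with 0.125 from counting. The rule used the spread of these libraries through the condition on overlap, so the values are a description. The SD at 0.25 mM exceeded the counting value in 58 of 63 risers and 98 of 109 fallers. The highest library at 0.25 mM was over 3 times the lowest in 2 risers and 25 fallers, beside 2.58% of the other genes of this abundance.

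A set of 12 fallers, picked after their values were seen, was at least 4-fold below control in libraries b and c but less than 2-fold below in a. Their log2 values against the control mean ran from -3.32 to -2.05 in b, from -3.59 to -2.01 in c and from -0.89 to -0.21 in a. GB50084-RA had 3.89, 4.67 and 3.89 CPM in the controls, 4.08, 3.49 and 3.36 CPM at 0.1 mM, and 2.4, 0.42 and 0.46 CPM at 0.25 mM. GB49739-RA had 1.88, 1.48 and 1.27 CPM in the controls, 1.75, 1.51 and 1.1 CPM at 0.1 mM, and 0.93, 0.2 and 0.13 CPM at 0.25 mM. In both genes the controls and the 0.1 mM libraries overlapped, a stood lower, and b and c were far below everything else. No riser was at least 4-fold above control in b and c with a under 2-fold. Only 2 of 63 risers reached 4-fold in both b and c at all, beside 19 of 109 fallers, so the directions cannot be compared in this.

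Another set, also picked after the values were seen, held the 6 fallers whose highest 0.1 mM library was over 9 times the lowest. In all 6, replicate 1 of 0.1 mM was the lowest and replicate 2 the highest. Besides GB46518-RA and GB40659-RA they were GB42612-RA, GB42798-RA, GB54457-RA and GB54488-RA. GB42798-RA had 7.1, 2.79 and 3.91 CPM in the controls, 0.106, 3.02 and 2.02 CPM at 0.1 mM, and 1, 0.782 and 0.256 CPM at 0.25 mM. GB54457-RA had 1.8, 1.51 and 3.66 CPM in the controls, 0.238, 5.11 and 0.95 CPM at 0.1 mM, and 0.303, 0.538 and 0.205 CPM at 0.25 mM. Replicate 1 of 0.1 mM thus lay within or below the 0.25 mM range and replicate 2 within or above the control range in GB42798-RA and GB54457-RA.

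Genes with identifiers next to a member's were looked at for the same direction at 0.25 mM against control. Consecutive identifiers were used as they stand, since neither positions nor the rule of numbering is stated in these sources. Of 73 genes of at least 0.5 CPM next to a riser, 23 had all libraries of 0.25 mM above all controls, or 31.5%, and 7 of them by at least 2-fold, or 9.59%. Over all 10735 genes of that level these shares were 14.3% and 1.11%. Next to a faller stood 163 genes, counted 165 times because some adjoin 2 fallers. Of the 165, 67 were wholly lower, or 40.6%, and 7 by at least 2-fold, or 4.24%, beside 35.6% and 2.2% over all genes. Of the 7 neighbours with a 2-fold difference in each direction, 2 next to risers and 4 next to fallers were members, chosen by the rule itself. The shares over all genes hold the 63 risers and 109 fallers too. Whether overlapping or adjoining features shared reads was not tested, and with no strand setting stated, reads of a gene cannot be separated here from those of an overlapping or antisense one.

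Several of these neighbours, picked after their values were seen, were far more abundant than the member. GB41221-RA, at 3.32 CPM on 0.25 mM food, lay between GB41220-RA, which had mean CPM of 21.6 in control, 42.4 with 0.1 mM and 50.5 with 0.25 mM, and GB41222-RA, with 13.4, 38.2 and 49.9 CPM. All 3 identifiers thus had their larger step between control and 0.1 mM. GB47507-RA averaged 0.348, 0.540 and 0.749 CPM beside GB47506-RA with 33.3, 43.6 and 76.8 CPM. GB46979-RA, 1 of the 12 fallers above, had 0.91, 0.293 and 0.256 CPM in libraries a, b and c, and its neighbour GB46978-RA had 47.5, 17.7 and 21 CPM there against 64.1, 66.4 and 63.6 CPM in the controls. In both of these genes library a stood nearer to the controls than b and c did. Neighbouring members were GB40122-RA and GB40123-RA among risers, and GB41077-RA with GB41078-RA and GB41407-RA with GB41408-RA among fallers.

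Between 0.25 mM and control, a 2-fold ratio without overlap was more frequent the less abundant the genes were. Upward at 0.1 mM against control this order did not hold throughout, with 7 of 4853 genes from 5 to 50 CPM and 9 of 3305 from 50 CPM on. In the range of 0.5 to 5 CPM, 0.25 mM against control gave 2.44% of genes upward and 4.23% downward. The same limits applied to 0.1 mM against control gave 11 genes upward and 4 downward, or 0.427% and 0.155%. Applied to 0.25 mM against 0.1 mM they gave 14 and 52, or 0.543% and 2.02%. Below 0.5 CPM, 142 of 3231 genes were upward and 171 downward at 0.25 mM against control. From 5 to 50 CPM the counts were 38 and 106 of 4853, and from 50 CPM on 18 and 21 of 3305. These shares compare genes, which are not independent replicates, so no test was made of them.

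**Figure D5:**
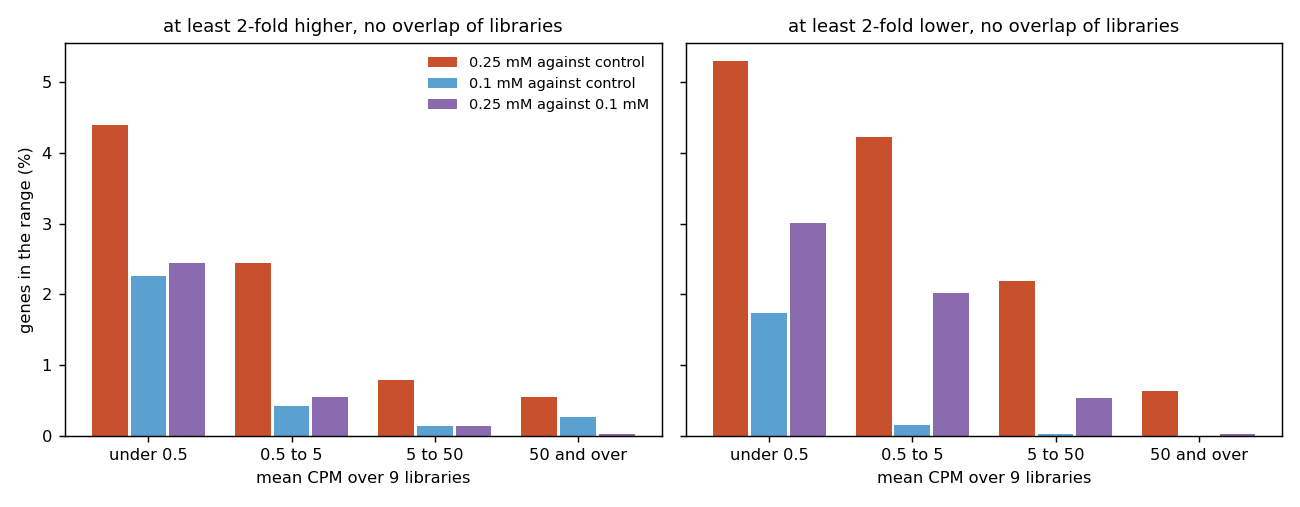
Share of genes in 4 ranges of mean CPM with at least a 2-fold ratio and no overlap between the libraries of 2 diets, upward (left) and downward (right), for the 3 comparisons. For 0.25 mM against control it falls from 4.39% and 5.29% below 0.5 CPM to 0.545% and 0.635% at 50 CPM and over.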

How the data were processed

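Libraries were prepared with a TruSeq kit, per the labels' protocols, and the deposited values are raw counts of reads on each feature, in 1 table. The submitters' processing notes list CASAVA 1.8, HTSeq and edgeR, with no role for any. Which aligner, build, annotation and strand setting were used is not stated in these sources. The 5 bookkeeping rows (12.1% to 13.8% of reads on no feature, 3.03% to 3.58% ambiguous, 17% to 18.4% unaligned) stayed out of library sizes. Columns were assigned by heading, and 0 were left unused. The replications may share a colony, and a p-value here reflects only the spread among these libraries.

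CPM used the sum of features. The count test was edgeR 4.0.16 in R 4.3.3 (filterByExpr, TMM, quasi-likelihood, 1 coefficient per diet over 9 libraries, 6 residual degrees of freedom, Benjamini-Hochberg over 11508 features, threshold 0.05), with DESeq2 1.42.0 and limma 3.58.1 as alternatives. SE came from the fold change and F. The rule and the test were tried on simulated data. Members, naming rule and alternatives were chosen with earlier results of these data known. Per direction the naming rule took the 2 largest ratios, the 2 largest changes at 0.1 mM, the 2 smallest p at 0.25 mM, the 2 closest to the median ratio and any called at 0.1 mM or between doses. Planned name-based lists could not be evaluated.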

Additional observations from a re-analysis of the deposited data

How the results depend on the processing

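The number of risers and fallers, 63 and 109, became 205 and 280 without a minimum mean CPM, 226 and 280 at a ratio of 1.5, and 8 and 23 at a ratio of 3, and the risers 40 with a minimum of 1 CPM. Other scaling, an upper limit of 10 CPM, ratios of medians and no rule on overlap kept both counts within 1.5 times. Leaving out 1 library gave 50 to 133 risers and 87 to 222 fallers, the highest without library a. Of the risers and fallers 62 and 92 were called at 0.25 mM against control, beside 17.1% and 18.5% of all genes. With 1 library left out the counts were 36 to 63 and 26 to 100. At these ends 6.42% and 15.1% of all genes were called higher, and 3.72% and 28.6% lower. Calls among risers at 0.1 mM numbered 1, beside 0.0695% of genes tested called higher. They were 2 with upper-quartile factors (0.113% of genes tested), 3 with DESeq2 (1.14%), 0 with limma-voom (0%) and 2 without a filter (0.107%). With only the 6 libraries compared they were 2 (0.282%), and with the replicate number as a block 0 (0.194%). With 1 library left out they were 0 to 3, the 3 being without library a (0.88%). DESeq2 called 1 faller there (0.279% of genes with an adjusted p called lower), and the block and 1 library left out gave 0 to 0. Between the doses, where edgeR called 0 and 0, DESeq2 called 21 risers and 48 fallers, beside 9.81% of genes higher and 11.4% lower. Leaving out 1 library gave 0 to 47 and 0 to 81, with calls only without library a. There 21.4% of all genes were called higher and 24.9% lower. In a count added after the values were seen, 0.25 mM lay clear of 0.1 mM in 50 risers and 90 fallers without library a, against 27 and 71 with it. At the same abundance 26.3% and 24.1% of genes were clear without library a, and 7.92% and 14% with it. The cause of the difference that library a made was not tested. Replicate numbers of control and 0.1 mM did not pair the libraries (correlations of their deviations -0.082, 0.099 and -0.123), and 0.25 mM has no numbers, so no block was fitted there. Of 12 named genes, 21 of 180 calls at 0.25 mM were lost and none reversed. All losses fell on GB51216-RA (6 of 15 settings), GB46518-RA (5), GB40659-RA (4), GB52184-RA (4) and GB49719-RA (2). Among these are the riser and the fallers with the largest ratios. With means of 0.5 to 5 CPM, counting error limits what single genes can show. So does the spread between libraries of 0.25 mM, where the median SD over mean was 0.270 in risers and 0.419 in fallers. Counting alone would give 0.111 and 0.167.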
